A study of Mus musculus with 18 samples.

Results

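Guanylate-binding proteins (GBPs) and immunity-related GTPases (IRGs) were examined as 10 genes out of the 49585 genes in the count table: Gbp2, Gbp3, Gbp5, Gbp6 and Gbp7 of the GBP family, and Iigp1, Igtp, Irgm1, Irgm2 and Tgtp2 of the IRG family. They were chosen by name and matched to their Ensembl rows, and all 10 passed the filter on low counts in every fit. The lowest count of a member in any library was 338 reads, for Gbp6, and the highest was 27677 reads, for Gbp2.

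Both families are GTPases that cells make in large amounts after interferon, above all interferon gamma from T cells and natural killer cells. The signal runs from the receptor chains Ifngr1 and Ifngr2 through the kinases Jak1 and Jak2 to gamma-activated sites (GAS) in DNA, while type I interferons act through a complex that includes Irf9 on interferon-stimulated response elements (ISRE). GBPs and IRGs gather on the vacuoles that hold intracellular bacteria and parasites and help to break them open, and GBPs also bind bacteria free in the cytosol. In inflamed tissue they are known chiefly as part of the interferon response of macrophages, and T cells, B cells and dendritic cells make them as well.

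The samples came from Kaede mice, whose cells carry a protein that light turns from green to red, so that cells lit in a tissue can be followed to the draining lymph node. The mice were 6 to 10 weeks old and matched for age and sex. They received OT-II CD45.1 CD4+ T cells polarised to Th1, were immunised with OVA in complete Freund's adjuvant, and were challenged 10 days later with 100 µg of heat-aggregated OVA (HAO) in the footpad (joint) or the ear pinna (skin). Tissue was photoconverted 3 days after challenge, and CD45+ Kaede red cells were sorted 24 hours after that, either from the tissue itself (nonmigrated) or from its draining node (migrated).

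A node group without HAO completed each site, so that there were 6 groups of 3 libraries: joint nonmigrated, joint migrated, joint steady-state node, skin nonmigrated, skin migrated and skin steady-state node. The steady-state libraries were labelled as cells that had left uninflamed tissue, but their titles name PBS and KG for the joint and Naive for the skin, and KG is not explained. The kind of control and the site therefore cannot be told apart in comparisons between the steady-state groups, or between the sites' changes against them. If KG stands for Kaede green, the joint steady-state cells need not have come from the joint. Inflammation then cannot be told apart from the origin of the cells in joint migrated against joint steady-state cells either. Whether the control mice were otherwise handled alike is unclear. Each library was made from pooled mice, so the p-values measure the spread between pools. The cells were a mixture in every group, and in such bulk libraries fewer cells of a type and less RNA per cell cannot be told apart.

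In GRCm38, 4 of the GBP genes lie side by side on the plus strand of chromosome 3: Gbp5 (ENSMUSG00000105504, chr3:142493978-142522344), Gbp7 (ENSMUSG00000040253, chr3:142530342-142550149), Gbp3 (ENSMUSG00000028268, chr3:142560026-142573209) and Gbp2 (ENSMUSG00000028270, chr3:142620602-142638008). Gbp6 (ENSMUSG00000104713) is on the minus strand at chr5:105270702-105293698. Chromosome 11 holds 4 of the IRG genes: Igtp (ENSMUSG00000078853, chr11:58199556-58207591, plus), Irgm2 (ENSMUSG00000069874, chr11:58199618-58222782, plus), Irgm1 (ENSMUSG00000046879, chr11:48861968-48871683, minus) and Tgtp2 (ENSMUSG00000078921, chr11:49057194-49064206, minus). Iigp1 (ENSMUSG00000054072) is on chromosome 18.

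These families hold near-identical copies, and a read that matches several genes was left out of the counts. Of all stretches of 100 bases (the read length) in its exons, Tgtp2 shared 76.8% with Tgtp1 or Gm12185, and Gbp6 shared 64.5% with Gm43302, Gbp10 and other GBP genes, so the counts of Tgtp2 and Gbp6 come from what remains and are uncertain. The exons of Gbp6 also overlap Gm43302 over 29.0% of their length, and those of Gbp7 overlap Gm43802 over 11.3%. Igtp and Irgm2 overlap each other on the same strand over 8.0% and 4.4% of their exons. Iigp1, Irgm1, Gbp2, Gbp3 and Gbp5 shared at most 0.7% of their stretches with another gene, although 1.0% of the exons of Gbp2 lie opposite Mir6381.

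The promoters of 5 members are shown because they carry the sites through which interferon is known to act on genes, and because the members differ in them. Each is the 300 bases from 250 before to 50 after the RefSeq start on GRCm38.p6, written 5′ to 3′ along the gene, with matches to the ISRE core (GAAANNGAAA or its reverse complement TTTCNNTTTC) and to GAS (TTCNNNGAA, which is its own reverse complement) in capitals. The windows of Gbp2, Gbp3 and Gbp5 come first, as these are the members that were higher in migrated cells than in steady-state nodes, and those of Igtp and Irgm1 follow.
Gbp2 (chr3:142620413-142620712, plus strand): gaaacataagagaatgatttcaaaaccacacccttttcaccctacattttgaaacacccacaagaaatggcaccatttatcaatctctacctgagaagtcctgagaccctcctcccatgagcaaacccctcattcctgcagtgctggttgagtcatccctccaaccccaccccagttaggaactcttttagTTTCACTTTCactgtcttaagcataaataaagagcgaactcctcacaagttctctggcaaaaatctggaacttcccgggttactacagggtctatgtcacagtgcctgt
Gbp3 (chr3:142559794-142560093, plus strand): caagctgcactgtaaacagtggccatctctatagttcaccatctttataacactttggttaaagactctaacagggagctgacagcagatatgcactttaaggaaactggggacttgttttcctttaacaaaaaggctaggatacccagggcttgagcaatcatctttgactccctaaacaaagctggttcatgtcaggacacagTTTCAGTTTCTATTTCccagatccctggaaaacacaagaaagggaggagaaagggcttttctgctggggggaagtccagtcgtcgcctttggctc
Gbp5 (chr3:142496684-142496983, plus strand): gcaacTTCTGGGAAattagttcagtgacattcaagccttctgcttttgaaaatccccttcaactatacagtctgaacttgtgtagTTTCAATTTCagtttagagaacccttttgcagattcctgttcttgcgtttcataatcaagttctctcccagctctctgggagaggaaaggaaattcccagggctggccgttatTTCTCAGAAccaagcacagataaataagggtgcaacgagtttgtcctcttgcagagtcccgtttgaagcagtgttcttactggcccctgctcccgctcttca
Igtp (chr11:58199306-58199605, plus strand): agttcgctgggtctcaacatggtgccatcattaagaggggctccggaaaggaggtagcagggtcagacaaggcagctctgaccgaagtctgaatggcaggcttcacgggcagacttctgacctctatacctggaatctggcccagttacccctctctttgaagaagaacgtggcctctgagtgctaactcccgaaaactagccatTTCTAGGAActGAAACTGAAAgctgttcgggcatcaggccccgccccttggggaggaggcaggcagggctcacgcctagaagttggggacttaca
Irgm1 (chr11:48871371-48871670, minus strand): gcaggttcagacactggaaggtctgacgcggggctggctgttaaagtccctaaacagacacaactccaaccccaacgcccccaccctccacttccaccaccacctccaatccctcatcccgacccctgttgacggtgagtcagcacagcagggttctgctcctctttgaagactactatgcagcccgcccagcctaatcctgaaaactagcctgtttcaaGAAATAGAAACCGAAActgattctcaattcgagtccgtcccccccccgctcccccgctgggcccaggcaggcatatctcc

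An ISRE core was present in 8 of the 8 members with a window in the table, against 3.44% of all 32851 promoter windows and 3.99% of the 27025 genes that have one. A GAS match was present in 5 of the 8 (Gbp5, Gbp7, Igtp, Irgm2 and Tgtp2), against 8.30% of all windows and 9.55% of the genes that have one. No GAS letters stood in the windows of Gbp2, Gbp3 and Irgm1. Gbp3 had a further RefSeq start whose window held neither motif. Gbp6 and Iigp1 were without an entry.

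In Gbp3 and Irgm1 the capitals run together because a pair of ISRE cores overlap. In Igtp, Irgm2 and Tgtp2 a GAS lay 2 bases ahead of the ISRE core, so that both form a single block, 45 to 25 bases before the start in Igtp, 75 to 55 in Irgm2 and 81 to 61 in Tgtp2. Gbp5 and Gbp7 each held a pair of GAS matches, and the ISRE core of Gbp5 was the farthest from its start, at 165 to 156 bases. Among 11 type I interferon target genes with a window, 5 held the ISRE core and 2 held a GAS. These matches describe letters in the windows and not binding.

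**Figure D1:**
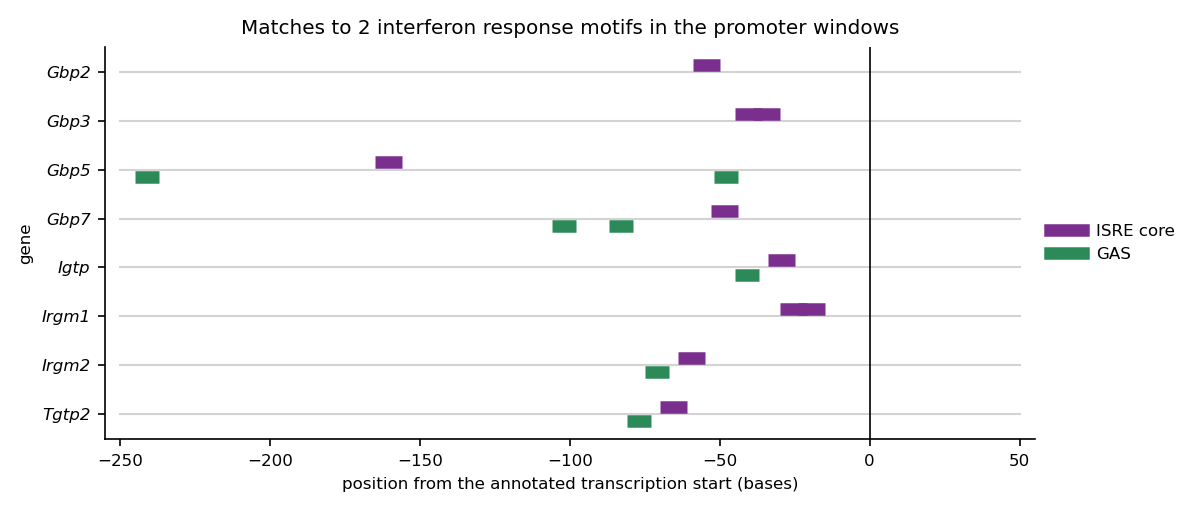
Positions of matches to the ISRE core and to GAS in the promoter windows of the 8 members with an entry, with the distance from the annotated start in bases on the horizontal axis and a gene on each line. Every member shows an ISRE core, which lies within 70 bases of the start in all but Gbp5, and GAS matches appear in 5 members.

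The libraries held 19239531 to 43814403 assigned counts, and every inflamed skin library (19239531 to 22528895) was smaller than every inflamed joint library (35554698 to 43814403). Reads on no gene were 0.092% to 0.135% in the inflamed skin libraries and 0.227% to 0.562% in all others. The column names of the inflamed skin libraries carry an S number and those of all others an R number, which is not explained. Site in the inflamed groups therefore cannot be told apart from library set, nor can inflammation in skin migrated against skin steady-state cells. Levels are given as CPM, the reads of a gene relative to the library total, scaled by the trimmed mean of M-values (TMM) over all 18 libraries, where 3 reads amount to 0.0616 to 0.18 CPM. The quasi-likelihood test of edgeR was run over all genes, in the 12 inflamed libraries (16777 genes) or the 12 node libraries (17107 genes). A gene is called when its Benjamini-Hochberg adjusted p is under 0.05 and its log2 fold change exceeds 1 in size. Errors of log2 fold changes are standard errors (SE).

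Markers of the cell types in the sort differed strongly between the groups. Ptprc, which encodes CD45, was at 1156 to 2531 CPM in all 18 libraries. The summed CPM of 5 neutrophil markers was 4742.5 to 14485.8 in joint nonmigrated and 1391.2 to 2475.5 in skin nonmigrated cells, against 12.3 to 82.2 in migrated cells. The summed CPM of 4 markers of mature migratory dendritic cells was 2683.5 to 7632.2 in migrated cells and at most 771.7 in the steady-state nodes, where Fscn1 was 2.73 to 5.90 CPM. The 5 B cell markers summed to 2413.0 to 4023.9 CPM in the steady-state nodes, 106.0 to 878.9 in migrated cells and 4.56 to 11.4 in skin nonmigrated cells. Keratinocyte RNA was present in skin nonmigrated cells despite the CD45 gate, with Krt5 at 12.3 to 149.3 CPM, against at most 0.465 elsewhere. The 3 keratinocyte markers summed to 23.3 to 271.7 CPM there and to at most 2.24 in the other groups.

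All 10 members had their highest mean level in skin nonmigrated cells. Gbp2, which gathers on pathogen vacuoles and aids inflammasome activation by bacteria, reached 1333, 1618 and 1195 CPM there. It was at 591, 375 and 219 CPM in joint nonmigrated, 329, 456 and 424 in skin migrated and 149.7, 243 and 226 in joint migrated cells. The steady-state nodes held 66.6, 56.6 and 65.2 CPM for the joint and 53.2, 58.2 and 63.1 for the skin. No skin nonmigrated library overlapped another group, no steady-state library overlapped an inflamed one, and the skin migrated libraries lay within the wide range of the joint nonmigrated ones.

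Gbp3, a vacuole-binding relative of Gbp2, ran closely beside it at lower levels. Its libraries were at 199.5, 216 and 243 CPM in skin nonmigrated, 149.1, 100.9 and 62.3 in joint nonmigrated, 86.1, 101.5 and 82.3 in skin migrated and 55.6, 64.3 and 62.4 in joint migrated cells. The joint steady-state nodes were at 29.4, 26.9 and 28.8 CPM and the skin ones at 25.1, 25.4 and 23.7. In Gbp3 too, every inflamed library was above every steady-state library.

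Gbp5, which promotes assembly of the NLRP3 inflammasome, had a different order among the inflamed groups. It was at 321, 430.2 and 299.7 CPM in skin nonmigrated cells, then 180.7, 261 and 245 in skin migrated and 93.1, 190.4 and 184 in joint migrated cells, and only 92.5, 58.7 and 51.1 in joint nonmigrated cells. The steady-state nodes lay at 40.3, 35.9 and 32.7 CPM for the joint and 37.6, 39.3 and 40.0 for the skin. Gbp5 was the 1 member of 10 whose migrated joint libraries all stood above the nonmigrated ones, by a narrow margin for joint migrated library 1.

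Among the IRGs, Igtp and Irgm1 belong to the regulatory GMS group, which keeps the effector GTPases off the cell's own membranes, and Irgm1 is also needed for macrophage autophagy. Igtp was at 272, 425 and 280.0 CPM in skin nonmigrated cells, but its other 5 groups lay close together, at 60.0 to 110.3 CPM. Irgm1 was at 339, 479.8 and 323 CPM in skin nonmigrated, 124, 93.0 and 65.0 in joint nonmigrated, 60.7, 74.5 and 56.0 in skin migrated and 57, 52.4 and 39.7 in joint migrated cells. Its steady-state libraries, at 85.9, 78.4 and 87.4 CPM for the joint and 78.4, 88.8 and 89.4 for the skin, stood above every migrated library.

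Iigp1, an effector of the GKS group that disrupts parasite vacuoles, had the widest range of the IRGs as a fold, though not in CPM. It was at 158.7, 116.8 and 260.0 CPM in skin nonmigrated and 79.3, 46.7 and 29.4 in joint nonmigrated cells, and at 18.3, 21.9 and 17.2 in skin migrated and 13.7, 8.34 and 7.44 in joint migrated cells. The joint steady-state nodes held 15.6, 15.0 and 14.4 CPM and the skin ones 17.6, 24.5 and 27.6. Nonmigrated cells of either site were above all node libraries without overlap.

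The other 4 members followed the same outline. Outside skin nonmigrated cells, Gbp6 ranged from 12 to 30.5 CPM, Gbp7 from 39.1 to 138.4, Irgm2 from 28.7 to 52.8 and Tgtp2 from 16.6 to 64.5. In skin nonmigrated cells they were at 67.4 to 80.6, 260.4 to 288.1, 89.9 to 137.7 and 89.0 to 114.2 CPM. Gbp7 has been linked to the phagocyte oxidase and autophagy, Irgm2 is a GMS regulator and Tgtp2 a GKS effector.

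**Figure D2:**
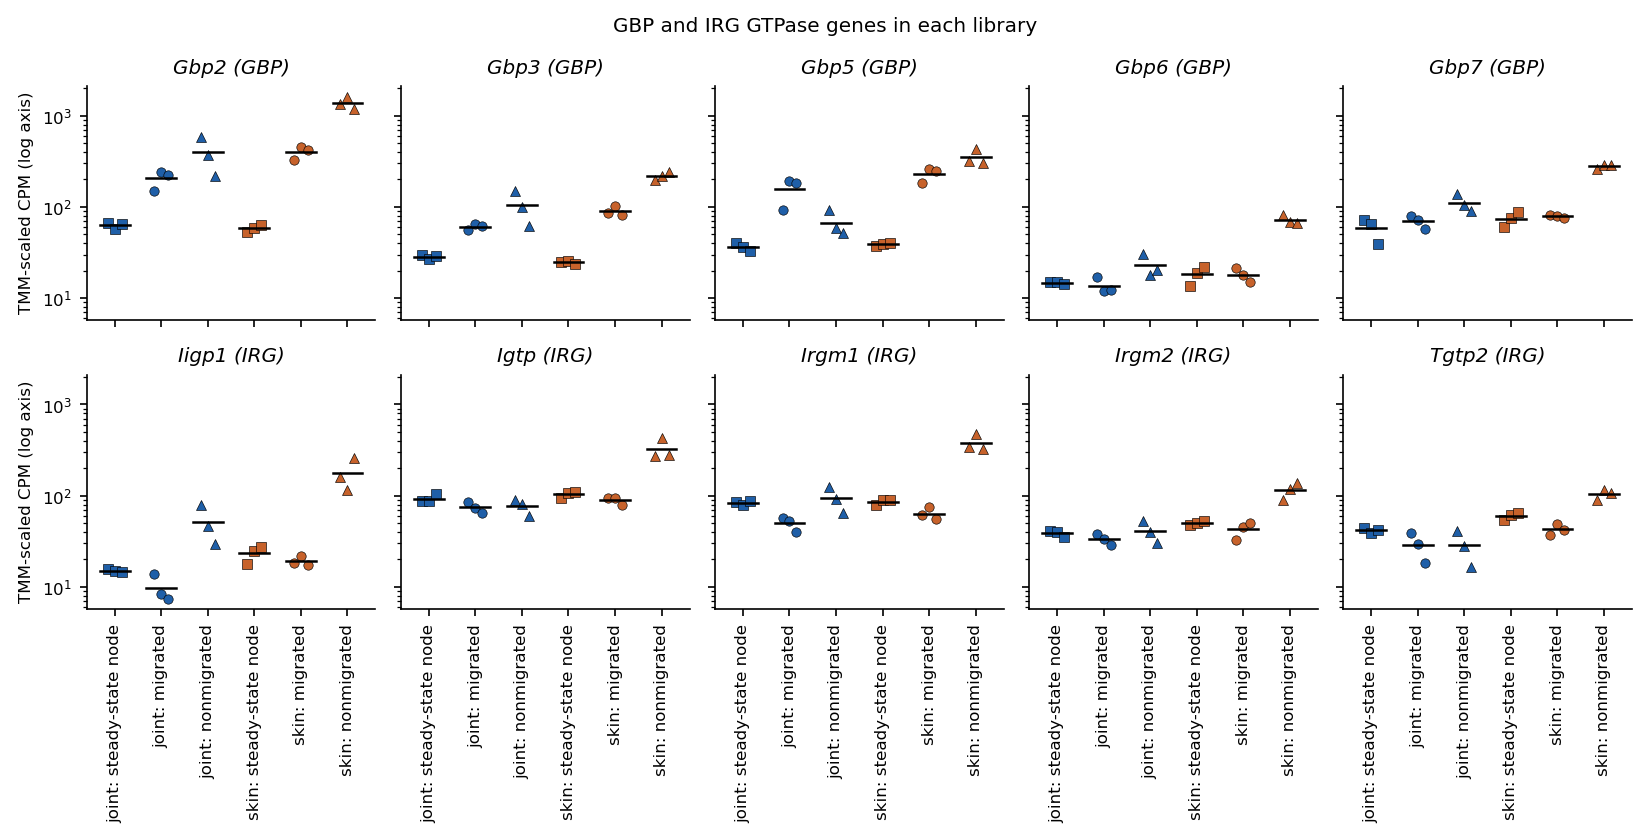
TMM-scaled CPM on a log axis for each member in every library, with joint in blue and skin in orange, and steady-state nodes, migrated and nonmigrated cells as squares, circles and triangles. Bars are means of 3 libraries. Skin nonmigrated cells are highest for all 10 genes, and only Gbp2, Gbp3 and Gbp5 separate migrated cells from steady-state nodes upward.

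Per kilobase of exon, which allows genes to be compared with each other, Gbp2 was the most abundant member in the inflamed groups, with a mean of 549 CPM per kb in skin nonmigrated cells, followed there by Igtp at 161. In the steady-state nodes the order of these members was turned round, with Igtp at 45.6 (joint) and 51.3 (skin) CPM per kb and Gbp2 at 25.0 and 23.1. Gbp6 was the least abundant member in 5 of the 6 groups, at 2.49 CPM per kb in joint steady-state nodes and 12.1 in skin nonmigrated cells, and Iigp1 was in joint migrated cells (1.68), subject for Gbp6 to the reads it lost to its copies.

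The comparison of nonmigrated cells between the sites asks how the cells that stayed in the inflamed joint differ from those that stayed in inflamed skin. All 10 members were called lower in the joint, where 14.3% of all genes tested were called and 8.86% were called lower. The median of their log2 differences was -1.80, against 0.01 over all genes. In all 10 the 3 joint libraries were below the 3 skin libraries, which held for 19.7% of all genes. Site and library set cannot be told apart here (above).

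Gbp5 had the largest of these differences (log2 -2.38, SE 0.305, adjusted p = 0.000378), a 5.21-fold lower level in the joint. Igtp (-2.08, SE 0.205, adjusted p = 8.78e-05) and Irgm1 (-2.02, SE 0.244, adjusted p = 0.000275) came next. Gbp2, Tgtp2, Iigp1 and Gbp6 were lower by 3.51-fold, 3.64-fold, 3.45-fold and 3.15-fold. Gbp3 had the smallest difference (-1.08, SE 0.239, adjusted p = 0.00722) and was no longer called without joint nonmigrated library 3 (-0.81) or skin nonmigrated library 3 (-1.0). Among the joint nonmigrated libraries, library 1 was highest for every member.

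Cell markers moved with this comparison, and their part in it was not tested. The summed neutrophil markers were higher in joint nonmigrated libraries (above), where 3 of the 5 were called higher and 2 were not called. Csf3r was at 328.9 to 579.1 CPM in joint and 433.3 to 631.0 in skin nonmigrated cells, and Cxcr2 at 70.3 to 200.5 and 111.0 to 164.3, so both overlapped. Joint library 1, which was highest for the GTPases, held the least neutrophil marker RNA among the 3 (S100a8 1846 CPM, against 3196 and 5591). Macrophage and monocyte markers summed to 4436.7 to 6314.9 CPM in the joint and 2185.7 to 5307.7 in skin, so these ranges overlapped. T cell markers were lower in the joint (117.5 to 242.4 CPM, against 247.9 to 665.3 in skin), as were markers of mature migratory dendritic cells (102.4 to 154.6, against 389.5 to 1709.4).

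The change from nonmigrated to migrated cells answers how the RNA of cells that left for the node differs from that of cells that stayed. In skin, 9 of the 10 members were called lower in migrated cells, where 35.4% of all genes were called and 19.7% were called lower. Every migrated skin library was below every nonmigrated one for all 10 members, which held for 30.2% of all genes. Their median log2 difference was -1.81, against 0.01 over all genes.

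Iigp1 was 9.35-fold lower in migrated skin cells (log2 -3.22, SE 0.397, adjusted p = 4.02e-05) and Irgm1 was 5.99-fold lower (-2.58, SE 0.25, adjusted p = 6.99e-06). Gbp6, Igtp, Gbp7 and Gbp2 were 3.98-fold, 3.65-fold, 3.55-fold and 3.44-fold lower. Irgm2, Gbp3 and Tgtp2 were lower by 2.69-fold, 2.45-fold and 2.44-fold. Gbp5 had the smallest difference and was not called (-0.62, SE 0.291, adjusted p = 0.0884).

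In the joint, 2 of the 10 members were called, in opposite directions, where 34.3% of all genes were called, 16.0% higher and 18.4% lower. Iigp1 was 5.27-fold lower in migrated cells (log2 -2.40, SE 0.384, adjusted p = 0.00027), and Gbp5 was 2.31-fold higher (1.21, SE 0.294, adjusted p = 0.00434). Gbp5 alone had no migrated library at or below a nonmigrated one in the joint, which held for 32.9% of all genes. Gbp2 (-0.94), Irgm1 (-0.92), Gbp3 (-0.78), Gbp6 (-0.73) and Gbp7 (-0.68) had adjusted p-values of 0.00327 to 0.0218 but differences below the fold required, and at any fold 7 members passed the adjusted p, against 55.5% of all genes. Igtp (-0.05, SE 0.197), Irgm2 (-0.29, SE 0.227) and Tgtp2 (0.01, SE 0.307) had adjusted p-values of 0.295 to 0.976.

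Single libraries decided part of this joint count. Without joint nonmigrated library 3, which was the lowest of its group for all members but Gbp6, 5 members were called, as Gbp2 (-1.23), Gbp3 (-1.04) and Irgm1 (-1.13) were added. Gbp2 was also called without joint migrated library 2 (-1.07) and Irgm1 without joint migrated library 1 (-1.01).

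**Figure D3:**
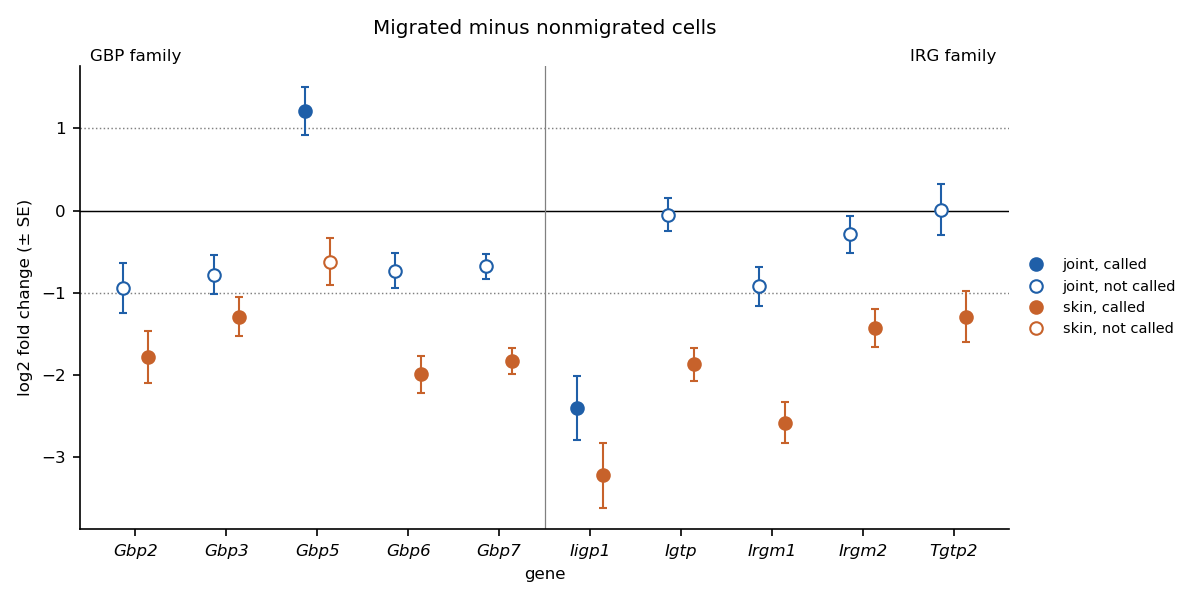
Log2 fold change of migrated minus nonmigrated cells (vertical axis, bars are SE) for each member in joint (blue) and skin (orange), with filled points for called differences and dotted lines at a log2 fold change of 1 in either direction. In skin all members lie below 0 and 9 are called, while in the joint Iigp1 is called lower, Gbp5 higher, and Igtp and Tgtp2 lie near 0.

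Whether the change differed between the sites was tested as an interaction, joint change minus skin change. It was called for 5 of the 10 members, where 6.13% of all genes were called and 3.96% were called in the same direction. All 10 values were positive, with a median of 1.21 on the log2 scale against -0.01 over all genes. Gbp5 (1.83, SE 0.413, adjusted p = 0.0222), Igtp (1.82, SE 0.281, adjusted p = 0.00421), Irgm1 (1.67, SE 0.336, adjusted p = 0.0133), Gbp6 (1.26, SE 0.307, adjusted p = 0.0305) and Gbp7 (1.15, SE 0.222, adjusted p = 0.0112) were called. Tgtp2 (1.30), Irgm2 (1.14), Gbp2 (0.85), Iigp1 (0.83) and Gbp3 (0.51) had adjusted p-values of 0.0535 to 0.354.

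The number called ranged from 3 to 7 when single libraries were left out. The call of Gbp6 was lost without any 1 of 7 libraries, skin nonmigrated 1 (1.17) or 2 (1.30), joint nonmigrated 2 (1.10) or 3 (1.18), skin migrated 2 (1.26) or 3 (1.16), and joint migrated 1 (1.10). That of Gbp5 was lost without any 1 of 4, skin nonmigrated 2 (1.65), joint nonmigrated 2 (1.73), skin migrated 1 (1.68) and joint migrated 2 (1.66). These 3 comparisons share their libraries with the comparison of nonmigrated cells, so they are not separate evidence. Neutrophil and macrophage markers were far lower in migrated than in nonmigrated cells at either site (macrophage and monocyte sum 269.6 to 516.5 CPM, against 2185.7 to 6314.9), T cell and mature migratory dendritic cell markers were higher, and their part was not tested.

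Between migrated cells of joint and skin, edgeR called 0 of the 10 members, where 1.14% of all genes were called, and the DESeq2 Wald test also called 0. All 10 were lower in the joint, by log2 values from -0.17 (Gbp7) to -0.97 (Gbp2), and 3 had an unadjusted p under 0.05: Gbp2 (adjusted p = 0.14), Iigp1 (-0.96, adjusted p = 0.228) and Gbp3 (-0.56, adjusted p = 0.265). These 3 were also those without overlap between joint and skin libraries, which held in this direction for 13.9% of all genes. B cell markers summed to 630.3 to 878.9 CPM in joint migrated and 106.0 to 189.9 in skin migrated cells, and their part was not tested.

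Against the steady-state nodes, migrated cells of inflamed mice were called higher for 3 of the 5 GBPs and for none of the IRGs at either site. This split between the families was not tested, and the origin of the joint steady-state cells is uncertain (above). In the joint, 3 of the 10 were called higher and none lower, where 24.2% of all genes were called and 16.9% were called higher, so that the number of members called was close to the share of all genes. Gbp5 was 4.39-fold higher (log2 2.14, SE 0.223, adjusted p = 3.88e-06), Gbp2 3.36-fold (1.75, SE 0.171, adjusted p = 2.2e-06) and Gbp3 2.19-fold (1.13, SE 0.0988, adjusted p = 7.72e-07). Gbp7 (0.29) and Gbp6 (-0.07) had adjusted p-values of 0.245 and 0.769.

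None of the 5 IRGs was called in the joint, and all 5 of their values were negative. Irgm1 (-0.72, SE 0.138, adjusted p = 0.000717) and Iigp1 (-0.58, SE 0.215, adjusted p = 0.0389) passed the adjusted p but not the fold. Tgtp2 (-0.50), Igtp (-0.28) and Irgm2 (-0.18) had adjusted p-values of 0.0588 to 0.329.

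In the skin Gbp2, Gbp3 and Gbp5 were again called higher and no member lower, where 36.5% of all genes were called and 21.5% were called higher. Here too the number of members called was close to the share of all genes. Gbp2 was 7.08-fold higher (log2 2.82, SE 0.178, adjusted p = 2.15e-08), Gbp5 6.01-fold (2.59, SE 0.227, adjusted p = 4.28e-07) and Gbp3 3.72-fold (1.89, SE 0.101, adjusted p = 5.55e-09). The other 7 members lay between -0.46 (Tgtp2) and 0.12 (Gbp7), and of these only Irgm1 passed the adjusted p (-0.39, SE 0.138, adjusted p = 0.023). Both counts of 3 were unchanged when any single library was left out. For these 3 genes every migrated library was above every steady-state library, as for 28.1% of all genes in the joint and 35.3% in the skin.

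**Figure D4:**
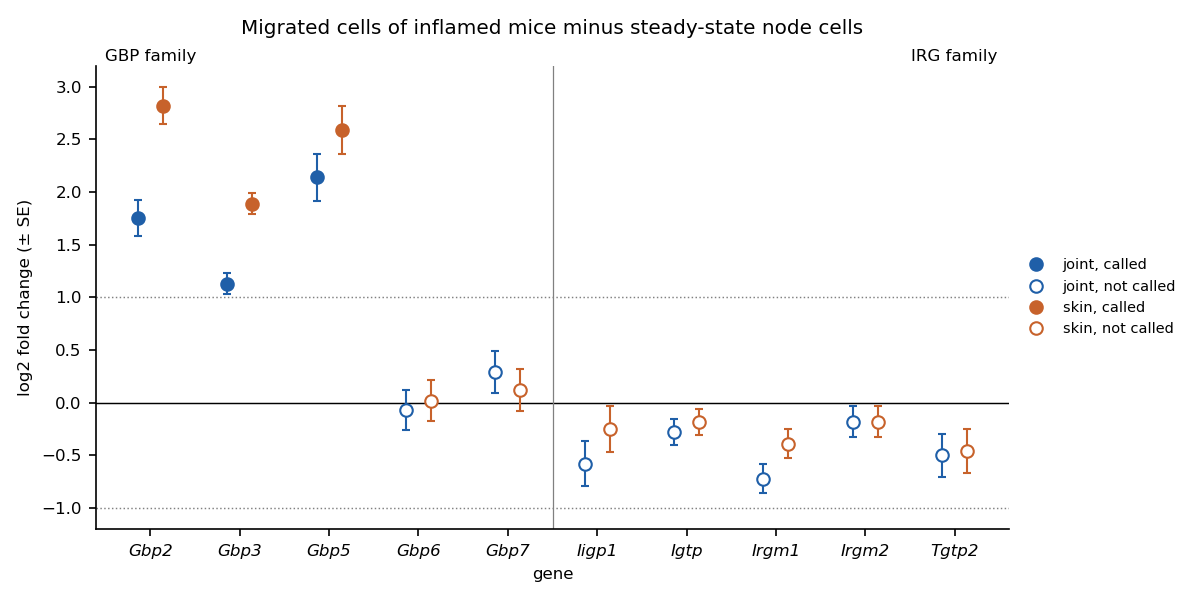
Log2 fold change of migrated cells of inflamed mice minus steady-state node cells (vertical axis, bars are SE) for each member in joint (blue) and skin (orange), with filled points for called differences. Gbp2, Gbp3 and Gbp5 lie above the dotted line at 1 at both sites, and the other 7 members lie between -0.72 and 0.29.

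The promoters printed above do not divide the members in the same way. Gbp2 and Gbp3, which were called higher, and Irgm1, which was not, held an ISRE core without GAS letters, while Gbp5 held both motifs, as did Igtp, Irgm2, Tgtp2 and Gbp7, which were not called. B cell markers were high and dendritic cell markers low in the steady-state nodes (above), and the part of this shift in the differences was not tested.

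The increase of Gbp2 over the steady-state node was smaller in the joint than in the skin (difference of log2 changes -1.08, SE 0.236, adjusted p = 0.0125), and it was the 1 member of 10 called, where 6.11% of all genes were called. The controls differed between the sites (PBS and KG for the joint, Naive for the skin). Site therefore cannot be told apart here from control type or library set. Gbp3 passed the adjusted p below the fold (-0.76, SE 0.139, adjusted p = 0.00435), and Gbp5 did not pass (-0.45, SE 0.303, adjusted p = 0.365). The call of Gbp2 was lost without any 1 of 6 libraries, joint migrated 1 (-0.89), skin migrated 2 (-0.93) or 3 (-0.99), joint steady-state 1 (-0.98) or 3 (-1.0), and skin steady-state 1 (-0.96). Between the steady-state nodes themselves, edgeR called 0 of 10 members, where 3.89% of all genes were called, and DESeq2 called 0. Iigp1 (-0.64), Tgtp2 (-0.54) and Irgm2 (-0.37) had unadjusted p-values under 0.05 and adjusted p-values of 0.0894 to 0.155, lower in the joint.

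Summed per kilobase, the 5 GBP members were below the 5 IRG members in the steady-state nodes and above them in the inflamed groups, a switch that turned on Gbp2. GBP and IRG genes outside the members were not in these sums. In joint steady-state nodes Gbp4 was at 22.5, Gbp8 at 14.7 and Gbp9 at 35.5 CPM per kb. The switch therefore describes the members chosen and not the whole families. The ratio of the 5 GBPs to the 5 IRGs was 0.532 to 0.66 in joint and 0.499 to 0.52 in skin steady-state nodes. It was 1.38 to 2.75 in joint migrated, 2.49 to 3.09 in skin migrated, 2.23 to 3.02 in joint nonmigrated and 2.10 to 2.54 in skin nonmigrated cells, so that no inflamed library overlapped a steady-state one. Without Gbp2 the ratio was 0.251 to 0.353 in the steady-state nodes and 0.505 to 1.09 in the inflamed groups, so that the other 4 GBPs summed to less than the IRGs in most inflamed libraries. Gbp2 alone made up 14.4% to 18.5% of the summed members in the steady-state nodes and 32% to 54.4% in the inflamed groups. The IRG sum was similar in most groups, at 54.1 to 110.8 CPM per kb, and reached 275.0 to 383.7 in skin nonmigrated cells. These sums were not tested.

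**Figure D5:**
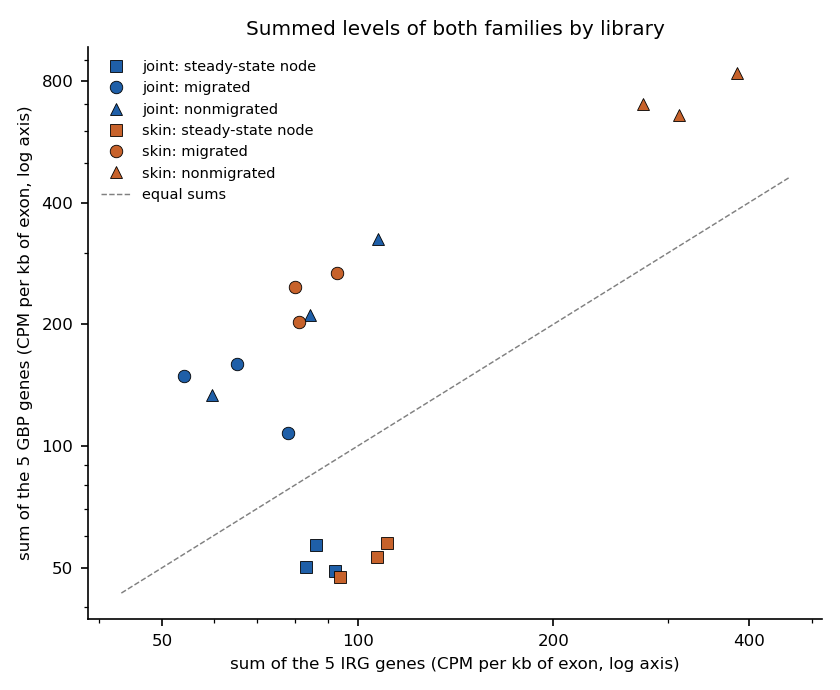
Sum of the 5 GBP genes against the sum of the 5 IRG genes in each library, both in CPM per kb of exon on log axes, with the site shown by colour and the group by shape. The dashed line marks equal sums. The 6 steady-state libraries lie below it, all 12 inflamed libraries above it, and skin nonmigrated cells stand apart at the top right.

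Of 6 other GBP genes (Gbp2b, Gbp4, Gbp8, Gbp9, Gbp10, Gbp11), 4 were called lower in joint than in skin nonmigrated cells, where 8.86% of all genes were. Gbp4 was at -2.41 (SE 0.237, adjusted p = 8.88e-05) and Gbp9 at -1.93 (SE 0.232, adjusted p = 0.000267). In skin, Gbp4 (-1.81), Gbp9 (-1.49) and Gbp11 (-1.55) were called lower in migrated cells, as were 19.7% of all genes. In the joint, Gbp8 (1.06) and Gbp10 (1.40) were called higher and Gbp2b lower (-2.44), where 16.0% and 18.4% of all genes were. Gbp4 and Gbp9 were not called in either comparison with the steady-state nodes. Gbp2b was called higher in both (2.60 in the joint, 2.25 in the skin) from 0.245 to 1.28 CPM in the nodes. In the joint 2 of the 6 were called higher and 1 lower, where 24.2% of all genes were called. Gbp8 was at 74.9 to 121.2 CPM in joint migrated cells and 44.1 to 57.8 in joint steady-state nodes, and Gbp11 at 0.836 to 1.36 and 2.49 to 3.29. In the skin 1 was called higher and none lower, where 36.5% of all genes were called. Gbp4, Gbp8, Gbp9, Gbp10 and Gbp11 share stretches with Gbp6, which makes their counts uncertain as well.

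Of 11 other IRG and giant GTPase genes, 7 were called lower in joint than in skin nonmigrated cells, 7 were called lower in migrated than in nonmigrated skin cells, and in the joint 1 was called higher and 3 lower. In these comparisons 8.86%, 19.7% and 18.4% of all genes were called lower, and 16.0% were called higher in the last. Tgtp1, the near copy of Tgtp2, was at 5.80 to 8.92 CPM in joint and 69.0 to 164.6 in skin nonmigrated cells (log2 -3.84, SE 0.358, adjusted p = 6.48e-05). It was called higher in migrated joint cells (1.09) and lower in migrated skin cells (-1.74), with a called difference between the sites (2.84, SE 0.464, adjusted p = 0.00524). Gm12250, which encodes the IRG effector Irgb10, was called lower in migrated skin cells (-2.23) and in joint against skin nonmigrated cells (-2.21). Against the steady-state nodes 4 genes were called lower in the joint, and 3 lower and 1 higher in the skin. There 24.2% (joint) and 36.5% (skin) of all genes were called, so that the skin number was close to the share of all genes.

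Of the interferon ligands, Ifng was the single one of 7 with enough counts to be tested. It was at 60.5, 96.0 and 14.9 CPM in skin nonmigrated, 9.82, 16.8 and 27.4 in joint nonmigrated, 31.0, 18.9 and 24.4 in skin migrated and 22.1, 26.7 and 21.7 in joint migrated cells, and at 2.66 to 3.8 in the steady-state nodes. Joint and skin nonmigrated libraries overlapped, although the difference was called (-1.67, SE 0.534, adjusted p = 0.0371). Migrated cells were called higher than steady-state nodes in the joint (2.87, SE 0.189, adjusted p = 7.28e-08) and the skin (3.18, SE 0.194, adjusted p = 1.67e-08). Skin nonmigrated library 3, lowest of its group for Ifng, was highest of its group for Iigp1, Irgm2 and Gbp3 and lowest for Gbp2, Gbp5, Gbp6 and Irgm1.

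Of 6 interferon receptor genes, 5 were called lower in migrated cells in the joint and 5 in the skin, where 18.4% and 19.7% of all genes were, with Ifngr2 at -1.35 (SE 0.187, adjusted p = 9.27e-05) and -1.01 (SE 0.186, adjusted p = 0.000727). None was called between joint and skin nonmigrated cells, where 14.3% of all genes and all 10 GTPases were, and the median of the 6 was 0.13. Below the call, Ifngr1 was higher in the joint without overlap, at 525.4 to 730.4 CPM against 324.7 to 364.4 in skin. Il10rb was lower without overlap, at 141.1 to 162.8 CPM against 164.2 to 217.0, and the other receptor genes overlapped. None of the 6 was called against the steady-state nodes, where 24.2% (joint) and 36.5% (skin) of all genes were. Neutrophil and macrophage markers were also far lower in migrated cells, and their part was not tested.

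Among 10 kinases and transcription factors, 5 were called lower in joint than in skin nonmigrated cells, where 8.86% of all genes were. Among them were Irf1 (-1.35, SE 0.165, adjusted p = 0.000299), Jak2 (-1.33) and Batf2 (-1.53). Irf1, a transcription factor induced by interferon gamma, was called higher in migrated cells than in steady-state nodes in the skin (1.04, SE 0.143, adjusted p = 2.93e-05) and had 0.40 (adjusted p = 0.0313) in the joint. Of the inhibitors, Socs1, which blocks the Jak kinases and is itself induced by interferon gamma, was called in opposite directions, higher in migrated joint cells (1.03, SE 0.115, adjusted p = 1.91e-05) and lower in migrated skin cells (-1.48, SE 0.116, adjusted p = 1.58e-06). Of the 6 inhibitors, 2 were called lower in joint than in skin nonmigrated cells, Socs1 (-2.39) and Usp18 (-1.74), against the same 8.86% of all genes.

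Of 13 other interferon gamma targets, 6 were called lower and 1 higher in joint than in skin nonmigrated cells, where 14.3% of all genes were called and 8.86% were called lower. Nos2, the inducible nitric oxide synthase of macrophages, was at 79.2 to 171.1 CPM in joint and 1868 to 2796 in skin nonmigrated cells, and Cd274, which encodes the checkpoint ligand PD-L1, at 268.6 to 325.9 and 1587 to 3594. The exception was the chemokine Cxcl9 (1.25, SE 0.291, adjusted p = 0.00915), at 79.0 to 97.9 CPM in joint and 25.3 to 60.2 in skin nonmigrated cells. Against the steady-state nodes, 4 of the 11 tested targets were called higher and 2 lower in the joint, and 6 were called higher in the skin. The shares of all genes called higher were 16.9% and 21.5%. Cd274 was at 2.13 and 2.69, Cxcl10 at 1.76 and 2.84, and Ido1 at 3.23 and 5.30 at levels of at most 1.82 CPM.

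Of 13 type I interferon targets, 12 were called lower in joint than in skin nonmigrated cells, 12 lower in migrated skin cells and 11 lower in migrated joint cells. The shares of all genes called lower were 8.86%, 19.7% and 18.4%. Rsad2, which encodes the antiviral protein viperin, was at 52.6 to 60.8 CPM in joint and 501.8 to 922.5 in skin nonmigrated cells. Its log2 change in migrated cells was -2.82 (SE 0.22, adjusted p = 1.7e-06) in the joint and -5.39 (SE 0.246, adjusted p = 4.33e-08) in the skin. Of the GTPases, 1 of 10 was called lower in migrated joint cells, where 18.4% of all genes were. The median of the type I targets was -1.88 in the joint, against -0.70 for the 10 GTPases, a contrast that was not tested. Against the steady-state nodes, 6 type I targets were called lower and 1 higher (Mx1, 1.74) in the joint, and 1 lower and 4 higher in the skin. In these comparisons 24.2% and 36.5% of all genes were called, so that the skin number was close to the share of all genes.

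Across the 18 libraries the members ran together to different degrees, which is given as a description, since the libraries share groups and cell mixtures. Over the 45 pairs, Pearson's r of log2 CPM (with 1 added) ranged from 0.319 (Gbp3 and Tgtp2) to 0.991 (Gbp2 and Gbp3), with a median of 0.804. Gbp5 was the least like the mean of the other members (r = 0.627) and Gbp6 the most (r = 0.949). Igtp and Irgm1, 2 GMS regulators, had r = 0.951.

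The gene most like the mean of the members among 18156 genes was Gm12250 (r = 0.98 over 18 libraries), followed by Tmem140 (0.969), the chemokine Cxcl11 (0.962), Naa80 (0.958) and Clic5 (0.957). The next 5 were Olfr56, Hyal1, Dusp13, Gm4673 and Rnf34, at r = 0.949 to 0.954. All 10 had their highest mean in skin nonmigrated cells, from 1.28 CPM (Dusp13) to 75.6 (Olfr56). Olfr56 spans the region of chromosome 11 that holds Tgtp2, on the other strand, and Naa80 and Hyal1 overlap on chromosome 9. The counts of Olfr56, Naa80 and Hyal1 are therefore uncertain.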

How the data were processed

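RNA-seq of sorted CD45+ cells was analysed in 18 libraries of pooled mice, 3 in each of 6 groups. The protocol text, shared by all libraries, names Kaede red cells, but the titles of the joint steady-state libraries hold KG, which is not explained. The authors trimmed 100-base paired reads with Trim Galore after FastQC, aligned them to mm10 with TopHat2 and counted them with HTSeq at its default settings on Ensembl 87. The values the authors deposited are raw counts per gene, 49585 genes in all. The 5 HTSeq summary rows were left out: reads on no gene were 0.092% to 0.562%, ambiguous reads 1.84% to 2.37% and reads not aligned uniquely 9.24% to 12.75%. These are percentages of the assigned counts and the 5 summary rows together. The 19239531 to 43814403 assigned counts per library set the precision of each level, for counting error only. Columns were matched to the samples' labels, and groups came from the stated source.

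Counts were scaled by TMM, filtered with filterByExpr (minimum count 10) and tested with edgeR 4.0.16 (quasi-likelihood, R 4.3.3, limma 3.58.1), with Benjamini-Hochberg adjustment over all genes. The thresholds were an adjusted p under 0.05 and a log2 fold change over 1. No replicates were identical: the chi-square per degree of freedom between replicates was 16.2 to 130.0. The fit was tested on simulated data with changes of log2 1.5 and 3 in size. For joint migration 61.6% and 88.7% of these were called, and 2 unchanged genes were called. For skin migrated against steady-state cells 74.5% and 96% were called, and 4 unchanged genes were. Changes near the fold threshold can therefore be missed. Gene positions and exon lengths were taken from GENCODE M21 (49326 genes matched), and promoters from RefSeq on GRCm38.p6 with 8 of 10 members matched. Protein sequences were not used here. The alternatives were DESeq2 1.42.0, its size factors, other filters, thresholds and sets of samples, the replicate number as a block, and leaving out each library. Figures were drawn with matplotlib 3.10.9.

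The genes named are the 10 members, genes of 10 pathway lists (called in a comparison or central to the list) and the 10 genes most like the members. The members and lists were chosen with earlier results of these data known. The comparisons share groups and are not independent of each other. Some results on genes of the lists are not reported here.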

Additional observations from a re-analysis of the deposited data

Results flagged for a closer look

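The change from nonmigrated to migrated cells differed between joint and skin for 5 members by edgeR's test of that difference, with the joint value minus the skin value on the log2 scale: Gbp5 by 1.83 (adjusted p = 0.0222), Igtp by 1.82 (adjusted p = 0.00421), Irgm1 by 1.67 (adjusted p = 0.0133), Gbp6 by 1.26 (adjusted p = 0.0305) and Gbp7 by 1.15 (adjusted p = 0.0112). The change of Gbp5 was 1.21 in the joint and -0.62 in the skin. Irgm1, Gbp6 and Gbp7 had negative values at both sites, smaller in size in the joint, and Igtp had -0.05 in the joint (adjusted p = 0.848) and -1.87 in the skin. The calls of Gbp6 and Gbp5 were lost without any 1 of 7 and 4 libraries.

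The change from steady-state node to migrated cells differed between joint and skin for Gbp2 (-1.08, adjusted p = 0.0125), which was higher in migrated cells at both sites (1.75 in the joint and 2.82 in the skin). Control type and library set differed between the sites as well, so site cannot be told apart from them. Groups of 3 libraries are too small to test a single library against its group.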

How the results depend on the processing

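Of 1360 values of single members under the alternatives, 1273 kept their direction and their side of the threshold, 34 calls were lost, 15 were gained and 38 changed sign, none of which was called. The call counts for skin migration (9), for both comparisons with steady-state nodes (3 and 3), and for migrated cells and steady-state nodes between sites (0 and 0) did not change when any library was left out. The counts went from 2 to 5 in joint migration, from 9 to 10 between nonmigrated cells, from 3 to 7 for the difference between sites in migration and from 0 to 1 for that against steady-state nodes. With an adjusted p under 0.001 the counts were 1 for joint migration, 5 between nonmigrated cells, and 0 and 0 for the differences between sites. The last count was also 0 with all 18 samples in 1 fit. For the difference between sites in migration DESeq2 called 7 members.

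The labels give replicate numbers but do not say whether these pair the libraries. Same-numbered libraries deviated together with r of 0.014 to 0.189 (joint) and 0.059 to 0.136 (skin) in the inflamed libraries. Other-numbered ones had -0.163 to 0.075 (joint) and -0.1 to 0.016 (skin). In the node libraries, same-numbered ones had r of -0.164 to -0.023. In the inflamed joint 4 of 6 libraries, in the inflamed skin 6 of 6, and among the node libraries 0 of 6 at each site were closest to their own number, a hint from the data and not the design. With the number as a block within each site, the difference between sites in migration was called for 6 members: Gbp5 lost its call (1.82, adjusted p = 0.0645) and Irgm2 (1.17) and Tgtp2 (1.33) gained one. The block changed no other call of a member. It ties libraries of a site only, so that for comparisons between the sites it does not pair the groups compared. The cause was not tested.

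Calls over all genes moved by more than 1.5 times as follows. With an adjusted p under 0.001 there were 3586 (joint migration, against 5757), 3508 (skin migration, against 5940), 511 (nonmigrated cells, against 2400), 0 (migrated cells, against 191), 2714 (joint against steady-state, from 4143), 246 (steady-state nodes, against 665), and 20 and 152 for the differences between sites (against 1029 and 1045). Between migrated cells there were 487 by DESeq2, 327 without a filter and 407 with all 18 samples. For the difference in migration there were 1756 by DESeq2 and 1664 with all 18 samples, and for that against steady-state nodes 666 with all 18 samples. Without skin nonmigrated library 3 there were 3720 between nonmigrated cells and 2610 for the difference in migration. Leaving out 1 library otherwise gave as few as 58 between migrated cells, 582 for the difference in migration and 695 for that against steady-state nodes.

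The changes of sign were in values near 0. Gbp6 in skin migrated against steady-state cells was -0.02 without a filter, -0.02 with 10 counts in every sample of 1 group, -0.0008 by DESeq2, -0.01 with all 18 samples and -0.001 with the groups compared alone. In the difference against steady-state nodes Irgm2 was -0.002 with all 18 samples and Tgtp2 was 0.01 with the filter of 10 counts. Leaving out 1 library gave -0.2 to 0.07 for Igtp and -0.26 to 0.35 for Tgtp2 in joint migration, -0.29 to 0.02 for Gbp6 in joint and -0.2 to 0.14 for Gbp6 and -0.06 to 0.2 for Gbp7 in skin against steady-state nodes, and in the difference of these -0.28 to 0.13 (Gbp6), -0.0005 to 0.4 (Gbp7), -0.22 to 0.05 (Igtp), -0.12 to 0.19 (Irgm2) and -0.31 to 0.27 (Tgtp2). The tests of a difference between sites had no fit with fewer groups. Skin inflamed libraries were the smallest, but every member had at least 338 counts, so depth limited the scarce list genes more than the members.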

Other observations

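Genes that mark vacuoles for attack and inflammasome genes that act after GBPs are given here as values. Of 14 autophagy conjugation and ubiquitin genes, 3 were called lower in migrated joint cells and 6 in migrated skin cells, where 18.4% and 19.7% of all genes were called lower, so that the joint count was close to the share of all genes. Among them were Map1lc3a (-1.74 and -1.89) and Gabarapl1 (-1.14 and -1.48). Of the 14 genes 1 was called lower in joint than in skin nonmigrated cells (Trim21, -1.05), where 8.86% of all genes were. Against the steady-state nodes Gabarapl1 was called higher in the joint (1.69) and the skin (2.62). The median over the 14 genes was -0.46 and -0.61 in the migration comparisons, against 0.02 and 0.01 over all genes.

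Of 6 inflammasome genes, 3 were called lower in migrated joint cells and 4 in migrated skin cells, where 18.4% and 19.7% of all genes were. Nlrp3, whose inflammasome Gbp5 promotes, had log2 values of -5.06 and -5.41 there. Casp4, the sensor of cytosolic lipopolysaccharide, had -1.72 and -1.97, and Casp1 had -1.17 and -1.18. Between joint and skin nonmigrated cells none of the 6 was called by edgeR, with a median of -0.17, whereas 14.3% of all genes and all 10 GTPases were. Against steady-state nodes none of the 6 was called in the joint, where 24.2% of all genes were. In the skin 3 were called higher, Nlrp3 (3.16), Casp4 (1.17) and Gsdmd (1.08), where 21.5% of all genes were. Neutrophil and macrophage markers were far lower in migrated than in nonmigrated cells, and their part in these values was not tested.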
